A study of Camellia sinensis with 12 samples.

Results

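A set of 78 annotated genes stood higher in the leaves of both Kucha tea genotypes than in the leaves of both conventional varieties, out of 33932 annotated genes in the deposited tables (0.23%). Levels are in FPKM, a fragment count normalised to gene length and to the size of the library. The genes were chosen on these same values. For each gene, log2(FPKM + 1) was averaged over the 3 libraries of a genotype. A gene was taken where the lower of the means of Kucha-6 and Kucha-11 exceeded the higher of the means of Yinghong9 and Qingxin1 by at least 1, a distance called the gap here, and where all 6 Kucha libraries exceeded all 6 conventional libraries. The difference between Kucha and conventional leaves is therefore described below and not tested.

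The 12 libraries were made from leaf RNA of untreated plants of 4 genotypes, with 3 libraries each. Kucha-6 and Kucha-11 are Kucha genotypes, and Yinghong9 and Qingxin1 are conventional varieties. All were grown in the same tea germplasm bank in Guangdong, and the series was designed around their contrasting theacrine content. The labels state neither plant age nor leaf stage, and they do not say if replicate libraries represent different plants. The p-values below are thus based on replicate spread that could be technical. Each kind is represented by 2 genotypes. A difference between the kinds cannot be told apart from a difference between these particular genotypes.

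Kucha is a bitter tea of southern China. Tea plants make the purine alkaloids theobromine and caffeine by adding methyl groups, in successive steps, to a xanthine ring derived from purine nucleotides. Theacrine is a methylated urate that Kucha leaves accumulate beside or in place of caffeine, and it derives from caffeine by oxidation and a further methylation. Methyltransferases, the supply of the methyl donor S-adenosylmethionine and purine breakdown are therefore the processes usually examined in such leaves. The deposited tables list the 78 genes by identifier only. None of the 33932 annotated identifiers was found among the 80110 genes of the RefSeq table at hand, so no gene of the set is given a name or a role, members of these pathways could not be looked up in it, and the leaf label could not be checked against marker genes. No position or sequence of the annotated genes was used here. Identifiers are printed for at most 2 genes in each direction of a comparison.

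The FPKM values of a library summed to between 609588 and 653908. The number of fragments behind them is unknown, so no counting interval is given, and a value of 0 means only that a gene is listed at 0.

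The rule left a small group at the edge of a broad distribution. All 6 Kucha libraries lay above all 6 conventional libraries in 855 annotated genes (2.52%), and 78 of these also passed the gap. The gap ran from 1.0 to 7.76 with a median of 1.41 and quartiles of 1.15 and 1.77. It was under 1.5 in 45 genes, at least 2 in 14 and at least 3 in 2. Between single libraries the margin was narrower. The lowest Kucha library exceeded the highest conventional library by 0.179 to 7.02 on the log2(FPKM + 1) scale, with a median of 0.905. Just inside the threshold, the gene with the smallest gap (1.0006) read 3.4, 3.39 and 2.48 FPKM in Kucha-6 replicates 1 to 3 and 4.04, 3.84 and 3.76 in Kucha-11. The same gene read 0.55, 0.54 and 0.33 in Yinghong9 and 1.2, 0.87 and 1.04 in Qingxin1. Just outside, a gene with a gap of 0.9903 read 9.04, 11.2 and 11.63 FPKM in Kucha-6, 9.41, 7.03 and 8.59 in Kucha-11, 3.84, 3.6 and 3.25 in Yinghong9 and 3.8, 4.95 and 2.58 in Qingxin1. These genes hardly differ in how far the kinds stand apart. A gap below 1.1 was found in 15 genes of the set, and 24 genes without overlap had a gap from 0.9 to below 1. A further 4 genes passed the gap, at 1.08 to 2.44, but had overlapping libraries. In the one with the gap of 2.44, Qingxin1 read 62.71, 0.17 and 17.37 FPKM, and its highest library stood above the lowest Kucha library, at 58.06.

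**Figure D1:**
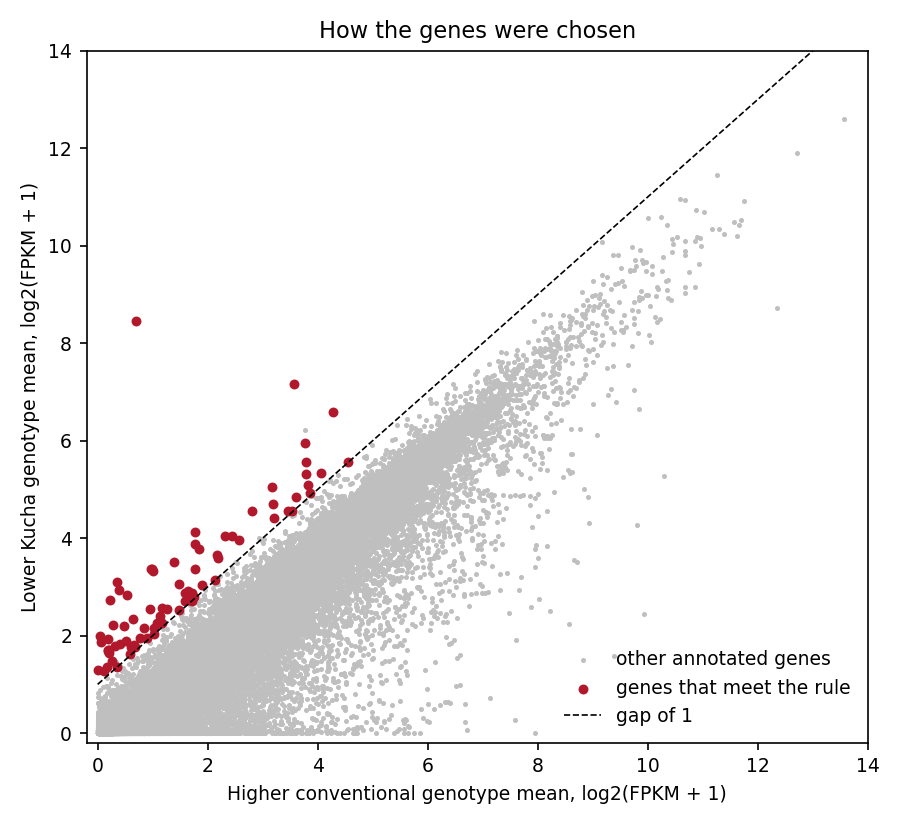
Each point is an annotated gene, with the higher of the Yinghong9 and Qingxin1 means on the x axis and the lower of the Kucha-6 and Kucha-11 means on the y axis, both in log2(FPKM + 1) and over 3 libraries per genotype. The 78 genes of the set (red) lie on or above the dashed line of a gap of 1, most of them close to it, and 1 gene with a gap of 7.76 stands far from the rest. The points above the line that are not red are the 4 genes with overlapping libraries.

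The genes of the set spanned a wide range of levels in Kucha and were mostly low in conventional leaves. The lower of the Kucha means was below 5 FPKM in 33 genes, from 5 to below 20 in 28, from 20 to below 100 in 14 and at least 100 in 3. The median over the set was 6.73 FPKM in Kucha-6 and 8.08 in Kucha-11, against 0.827 in Yinghong9 and 0.992 in Qingxin1. Over all 22782 annotated genes tested (at least 1 FPKM in at least 3 libraries) the medians were 7.1, 7.63, 8.13 and 7.18 FPKM in the same order. The median of the set was thus near that of the annotated genes tested in Kucha and below it in the conventional varieties. Annotated genes that failed the filter are left out of this comparison, and the rule itself favours low conventional values. All 78 genes passed the filter, which their Kucha values alone nearly ensured.

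In conventional leaves the genes ranged from listed at 0 to moderately expressed. Every conventional library was under 1 FPKM in 28 genes, whose lower Kucha mean ran from 1.42 to 7.59 FPKM with a median of 2.56. A single gene was listed at 0 in all 6 conventional libraries; it read 2.37, 2.35 and 2.13 FPKM in Kucha-6 and 0.74, 2.18 and 1.62 in Kucha-11. All 3 libraries of Yinghong9 were at 0 in 7 genes, and all 3 of Qingxin1 in 6. The higher of the conventional means reached at least 1 FPKM in 46 genes and at least 10 FPKM in 12, so most of the set was detected in a conventional variety and differed in amount. In Kucha, every library reached at least 1 FPKM in 75 genes and at least 10 FPKM in 24.

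**Figure D2:**
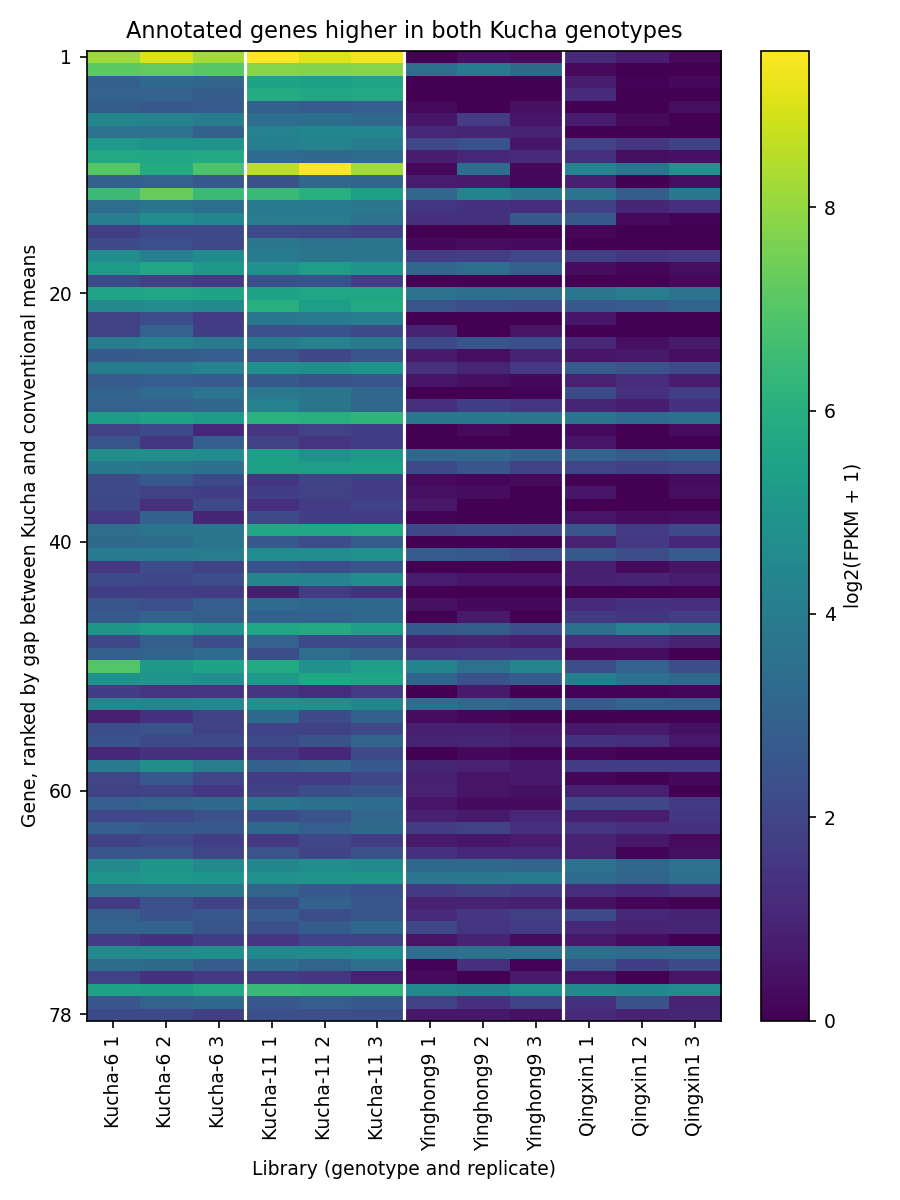
Levels of the 78 genes (rows, ranked by the gap, greatest at the top) in the 12 libraries (columns), with color giving log2(FPKM + 1). The 6 Kucha columns on the left are brighter than the 6 conventional columns in every row, as the rule requires. The first row is bright in Kucha and dark in conventional leaves, and several rows are brighter in Kucha-11 than in Kucha-6.

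Summed over the set, the levels also differed between the Kucha genotypes. The 78 genes added up to 1594.7, 1817.7 and 1504.9 FPKM in Kucha-6 replicates 1 to 3 and to 2601.0, 2702.6 and 2410.9 in Kucha-11. In Yinghong9 the sums were 217.1, 231.7 and 214.2 FPKM, and in Qingxin1 they were 236.5, 195.2 and 218.8. The set made up 0.239% to 0.287% of the summed FPKM of a library in Kucha-6, 0.386% to 0.424% in Kucha-11, and 0.0307% to 0.0372% in the conventional varieties. Without the most abundant gene, TEA009099.1, the sums were 1211.3 to 1309.4 FPKM in Kucha-6 and 1732.9 to 2158.2 in Kucha-11, so the Kucha genotypes still did not overlap. The sums are carried by a few genes, and the median over the set was closer, at 2.88 to 3.03 on the log2(FPKM + 1) scale in Kucha-6 libraries and 3.17 to 3.3 in Kucha-11. No library stood apart over the set. The median departure of a library from its genotype mean lay between -0.079 and 0.093 on that scale.

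TEA009099.1 had the greatest gap, at 7.76. It read 285.31, 513.48 and 293.6 FPKM in Kucha-6 replicates 1 to 3 and 726.01, 544.41 and 678.0 in Kucha-11. In Yinghong9 it was listed at 0, 0.3 and 0.19, and in Qingxin1 at 1.21, 0.65 and 0.16. It was among the abundant leaf genes in Kucha and barely detected in the conventional varieties: by the mean over 6 libraries it ranked 103 of the 33932 annotated genes in Kucha and 23414 in conventional leaves. Kucha-6 was lower than Kucha-11 by 0.88 ± 0.25 (SE) on the log2 scale (limma, adjusted p = 0.0103), which is under the fold threshold used for a call, and the libraries of the Kucha genotypes did not overlap. Yinghong9 and Qingxin1 differed by -0.48 ± 0.25 (limma, adjusted p = 0.113), with overlapping libraries and a 95% interval from -1.02 to 0.05.

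TEA010054.1 came next, with a gap of 3.59. Its levels were 139.41, 151.91 and 134.23 FPKM in Kucha-6 and 220.96, 219.1 and 225.07 in Kucha-11. Yinghong9 read 9.93, 14.66 and 8.72 FPKM, whereas Qingxin1 was listed at 0.18, 0 and 0. The libraries of the Kucha genotypes did not overlap, and Kucha-6 was lower by 0.64 ± 0.14 on the log2 scale (limma, adjusted p = 0.00224, under the fold threshold). The conventional varieties were far apart for this gene, so its gap measures the distance of Kucha-6 from Yinghong9 alone. Its rank by mean FPKM was 376 in Kucha and 13651 in conventional leaves.

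**Figure D3:**
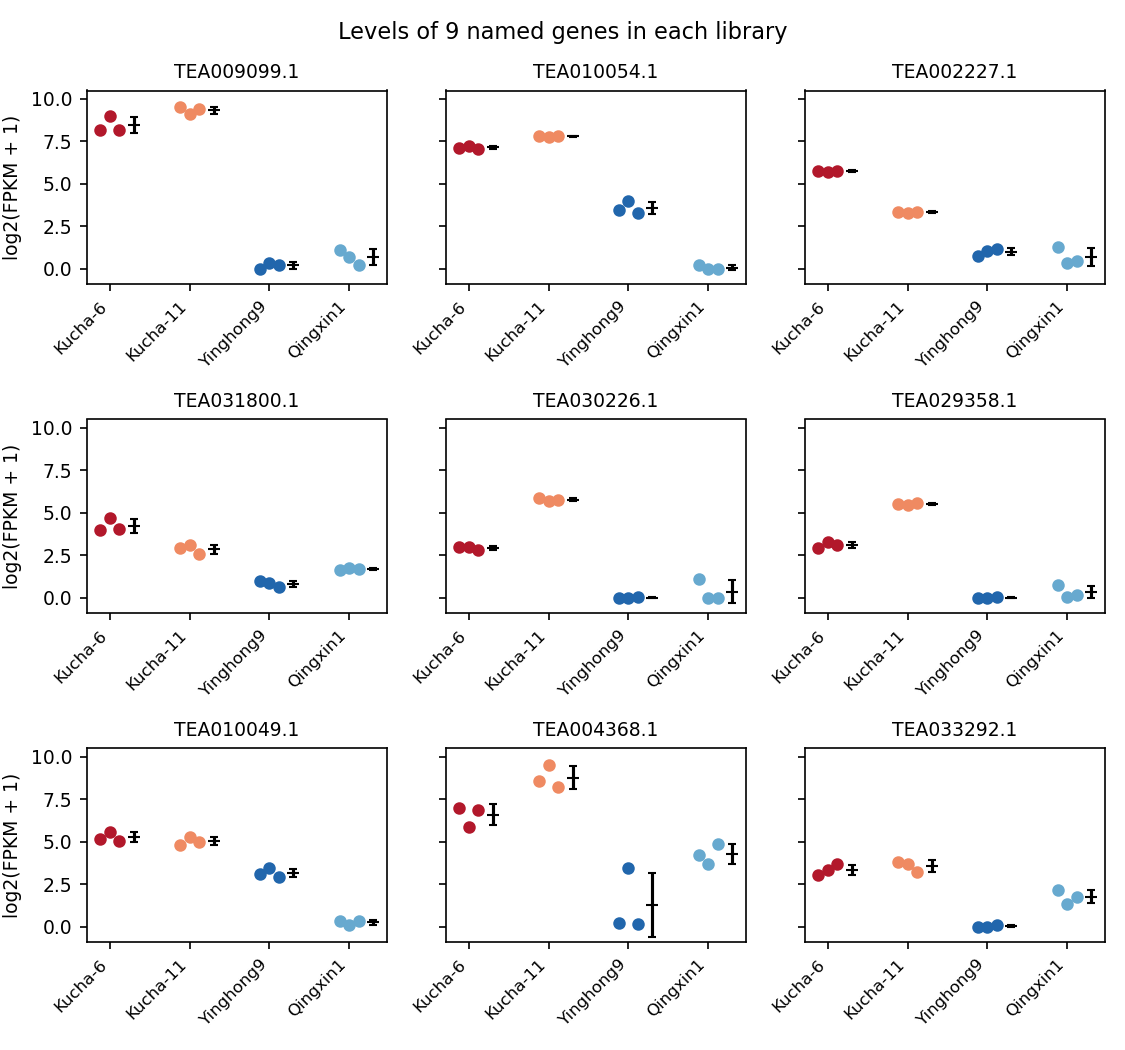
Levels in log2(FPKM + 1) of the 9 genes named in the text, with a point for each library and, beside the points, the mean and SD over the 3 libraries of a genotype. All 6 Kucha points lie above all 6 conventional points in each panel. TEA010054.1 and TEA010049.1 have Yinghong9 well above Qingxin1, and TEA030226.1 and TEA029358.1 have Kucha-11 well above Kucha-6.

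The rule set no order between Kucha-6 and Kucha-11, but it used the lower of their means, so their difference is not independent of it. This difference was tested with limma across all 29364 features with a mean per genotype. A gene was called at a Benjamini-Hochberg adjusted p below 0.05 over all features and a log2 difference of at least 1. In 10 genes of the set (12.8%) Kucha-6 was called lower than Kucha-11, beside 8.85% of all annotated genes tested. It was called higher in 2 genes (2.56%), beside 7.61%. Together 15.4% of the set was called. Whether the set differs from all annotated genes was not tested. Genes low in either Kucha genotype are removed by the rule, which also limits the comparison of shares. The differences called lower ran from -1.18 to -2.85, and the 2 higher ones were 1.36 and 2.41. Over the set the median size of the difference was 0.42 on the log2 scale, against 0.36 over all annotated genes tested. Another 20 genes passed the adjusted p but not the fold threshold. Of these, 15 were lower in Kucha-6 (19.2% of the set, beside 19.2% of all annotated genes tested) and 5 were higher (6.41%, beside 12.3%). Of the 66 genes not called, the 95% interval of the difference lay within -1 to 1 in 46, and in the other 20 a larger difference is not bounded by these libraries.

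TEA030226.1 and TEA029358.1 had the greatest differences toward Kucha-11. TEA030226.1 read 6.94, 6.94 and 5.97 FPKM in Kucha-6 against 57.94, 50.58 and 53.7 in Kucha-11, a log2 difference of -2.85 ± 0.24 (SE; limma, adjusted p = 6.8e-07). In Yinghong9 it was listed at 0, 0 and 0.05 and in Qingxin1 at 1.2, 0 and 0. The single Qingxin1 library with 1.2 FPKM was the highest conventional value, and the lowest Kucha library was well above it. TEA029358.1 read 6.54, 8.6 and 7.62 FPKM in Kucha-6 against 45.55, 42.41 and 46.85 in Kucha-11, a log2 difference of -2.43 ± 0.17 (limma, adjusted p = 1.39e-07). Its conventional libraries lay between 0 and 0.69 FPKM, the highest again in Qingxin1 replicate 1. Both genes were near 0 in most conventional libraries, at a few FPKM in Kucha-6 and several times higher in Kucha-11. They were picked for this excess of Kucha-11, and the rule favours low conventional values.

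The opposite order was found for TEA002227.1 and TEA031800.1. TEA002227.1 read 54.18, 50.6 and 53.28 FPKM in Kucha-6 against 9.19, 8.7 and 9.4 in Kucha-11, a log2 difference of 2.41 ± 0.21 (limma, adjusted p = 7.08e-07). Yinghong9 read 0.71, 1.09 and 1.27 and Qingxin1 1.46, 0.27 and 0.39, so the conventional varieties overlapped. TEA031800.1 read 14.71, 25.11 and 15.35 FPKM in Kucha-6 against 6.53, 7.69 and 5.05 in Kucha-11, a difference of 1.36 ± 0.20 (limma, adjusted p = 8.55e-05). It was less sharply set off from conventional leaves, where Yinghong9 read 1.0, 0.85 and 0.56 FPKM and Qingxin1 2.18, 2.4 and 2.31.

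The difference between the conventional varieties was tested in the same way. Yinghong9 was called higher than Qingxin1 in 5 genes of the set (6.41%), beside 12.5% of all annotated genes tested, and lower in 8 (10.3%), beside 8.22%. These shares are not comparable with the background, because the rule favours low conventional values. In the 28 genes with every conventional library under 1 FPKM the difference on the log2(FPKM + 1) scale cannot reach 1, so they could not be called. Only 2.13% of all annotated genes tested had every conventional library under 1 FPKM. All 13 calls thus fell among the other 50 genes. A call was out of reach for some of these too. The higher conventional mean reached 1 FPKM in only 46 genes of the set. With a pseudocount of 0.1 in place of 1, the calls in the set rose to 13 higher and 15 lower. Over all features the median log2 difference of Yinghong9 against Qingxin1 was 0.17, so the comparison is shifted toward Yinghong9 as a whole, and the median over the set was 0.06. The higher calls ran from 1.47 to 3.49 and the lower ones from -1.11 to -2.99. In 3 of the 5 genes the lower variety, Qingxin1, was under 1 FPKM in all its libraries, as was Yinghong9 in 4 of the 8. The median size of the difference was 0.30 over the set and 0.45 over all annotated genes tested. Low conventional levels compress differences on this scale, in the set more than elsewhere. Among the 37 of the 50 genes that were not called, the 95% interval lay within -1 to 1 in 27.

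TEA010054.1 and TEA010049.1 were the genes with the greatest excess of Yinghong9 over Qingxin1. The difference was 3.49 ± 0.14 for TEA010054.1 (SE; limma, adjusted p = 6.57e-10), whose libraries are given above. TEA010049.1 read 7.8, 9.87 and 6.61 FPKM in Yinghong9 and 0.25, 0.09 and 0.28 in Qingxin1, a difference of 2.90 ± 0.17 (limma, adjusted p = 1.67e-08). In Kucha-6 it read 35.32, 47.87 and 32.98 FPKM and in Kucha-11 27.43, 38.97 and 31.11, with overlapping libraries and a difference of 0.24 ± 0.17 (limma, adjusted p = 0.271; 95% interval from -0.13 to 0.61). With a pseudocount of 0.1 the differences between the varieties were 6.28 for TEA010054.1 and 4.78 for TEA010049.1, so their size depends on how values near 0 are treated. In both genes Yinghong9 lay between Kucha and Qingxin1, with no overlap on either side. This order was fixed by the rule and by the choice of these genes, so it is not a separate result.

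TEA004368.1 and TEA033292.1 had the greatest excess of Qingxin1. TEA004368.1 read 0.16, 9.95 and 0.14 FPKM in Yinghong9 and 17.8, 12.18 and 28.6 in Qingxin1, a difference of -2.99 ± 0.81 (SE; limma, adjusted p = 0.00955). Its Kucha levels were 127.96, 58.15 and 116.71 FPKM in Kucha-6 and 383.9, 743.99 and 295.81 in Kucha-11, and it was the only gene of the set called in both comparisons. It also varied most between libraries of the same genotype, with a pooled SD of 1.09 on the log2 scale, where the median over the set was 0.24 and the next highest value 0.84. The call of Kucha-6 against Kucha-11, -2.19 ± 0.81 (limma, adjusted p = 0.0467), was lost when any library of these 2 genotypes or of Qingxin1 was left out, at adjusted p = 0.0578 to 0.152. TEA033292.1 read 0, 0 and 0.08 FPKM in Yinghong9 and 3.46, 1.6 and 2.44 in Qingxin1, a difference of -1.74 ± 0.23 (limma, adjusted p = 2.24e-05). With a pseudocount of 0.1 the differences were -4.43 for TEA004368.1 and -4.35 for TEA033292.1. The Kucha libraries of TEA033292.1 overlapped, at 7.28, 9.17 and 11.82 FPKM in Kucha-6 and 13.28, 12.07 and 8.22 in Kucha-11.

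**Figure D4:**
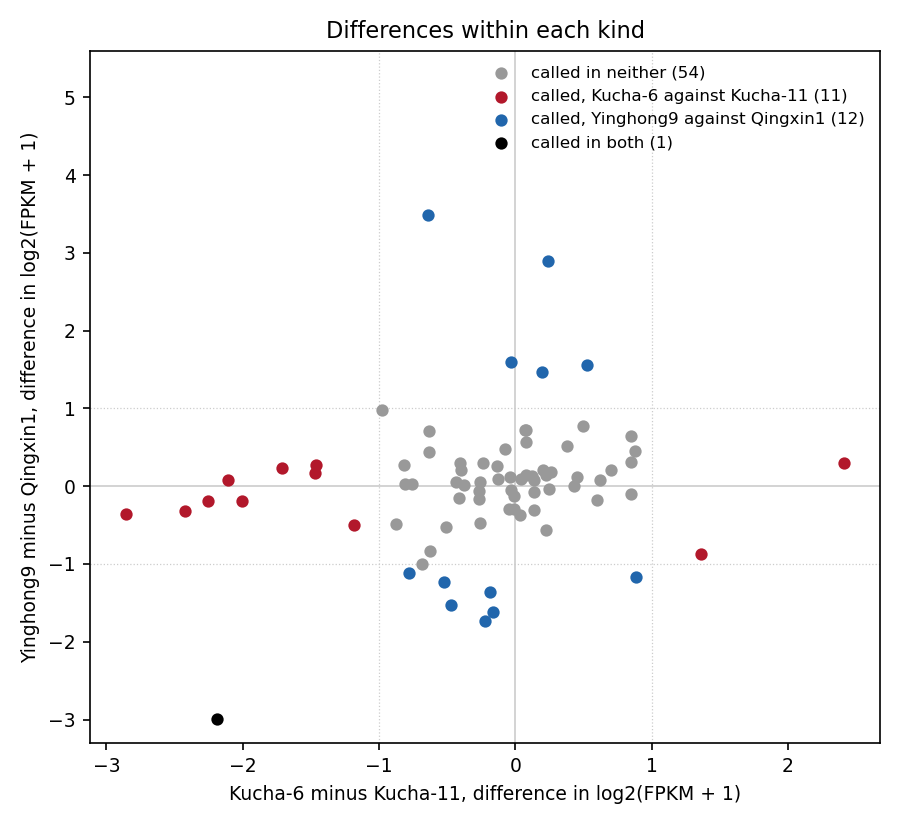
Each point is a gene of the set, with the difference of Kucha-6 from Kucha-11 on the x axis and that of Yinghong9 from Qingxin1 on the y axis, both in log2(FPKM + 1). Dotted lines mark a difference of 1 in size, and colors mark the limma calls. Of the 78 points, 54 were called in neither comparison, 11 in the first alone, 12 in the second alone and 1 in both. At least 28 genes could not be called in the second comparison on this scale.

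The order of the genotype means varied within the set. Kucha-11 was the highest genotype in 46 genes and Kucha-6 in 32, counting differences of any size. Kucha-6 was thus below Kucha-11 in 59.0% of the set and in 55.6% of all annotated genes tested, and the median log2 difference was -0.10 over the set and -0.07 over all features. With Kucha-11 highest, the conventional order was Yinghong9 above Qingxin1 in 22 genes and the reverse in 24. With Kucha-6 highest, Yinghong9 was above Qingxin1 in 22 genes and below it in 9, and in 1 gene both conventional means were 0. In the set 54 genes were called in neither comparison, but at least 28 genes could not be called between the conventional varieties. That count is thus partly set by the rule and the scale, and the matching share of all annotated genes was not counted. The median pooled SD of libraries within a genotype was 0.24 on the log2 scale over the set and 0.18 over all annotated genes tested.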

How the data were processed

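The authors deposited FPKM values with 2 decimals, in 1 table per library with 42704 features, per the file headers. TopHat2 2.1.1 and Bowtie2 2.2.8 are listed in the submitters' processing notes. Which program gave the FPKM, on which build and annotation, and how multi-mapping reads were treated is not given in the sources used, so genes with near-identical copies are uncertain. Depletion of ribosomal RNA and dUTP in the second strand are described, per the labels' protocols, in a text that also mentions retinas, so the protocol is not certain.

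The set and its descriptions were chosen with earlier results of these data known. FPKM is not a count, so log2(FPKM + 1) was tested with limma 3.58.1 in R 4.3.3 (trended, robust prior; a mean per genotype; all 12 libraries). A feature entered the fit if 3 or more libraries had 1 FPKM or more, and p-values were adjusted over all of them by Benjamini-Hochberg. Differences on this scale understate those of low genes. The procedure was tested on simulated data. Named genes are the 2 with the greatest gap and, within each kind, the 2 greatest called differences in each direction without overlap. Alternatives were another pseudocount, filters, quantile and trimmed-mean (TMM) scaling, a replicate block, pairwise fits, left-out libraries and, for the rule, other gaps.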

Additional observations from a re-analysis of the deposited data

How the results depend on the processing

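The size of the set depends on the scale. With a pseudocount of 0.1 in place of 1, 217 genes met the rule, all 78 of the set among them. A gap of at least 1.5 left 33 genes, and one of at least 0.5 gave 343. Quantile normalization gave 84 genes (75 of them in the set), TMM scaling 82 (76), and leaving out each library 76 to 86, with 57 of the 78 present each time. With the set held fixed, a pseudocount of 0.1 raised the calls of Yinghong9 against Qingxin1 from 5 higher and 8 lower to 13 and 15. Leaving out each library gave 2 to 4 genes higher and 9 to 11 lower in Kucha-6 than in Kucha-11, with 4 higher without Kucha-11 replicate 1, and 5 to 6 higher and 7 to 10 lower in Yinghong9 than in Qingxin1. The named differences within a kind kept their direction and their call in each alternative that could be fitted, but with a pseudocount of 0.1 those of Yinghong9 against Qingxin1 grew to -4.43 to 6.28, from -2.99 to 3.49. The exception is TEA004368.1 in Kucha-6 against Kucha-11, lost also with a pseudocount of 0.1 (adjusted p = 0.181). The replicate numbers gave no sign of pairing within a kind. Deviations of same-numbered libraries correlated at -0.0886 to 0.033, and those of differently numbered libraries at -0.1306 to 0.181. Pairing between Kucha and conventional libraries was not checked. With the replicate block, 2 genes were higher and 9 lower in Kucha-6 than in Kucha-11, TEA004368.1 being the one lost (adjusted p = 0.0684), and 5 were higher and 8 lower in Yinghong9 than in Qingxin1. Depth is unknown, and differences among values well under 1 FPKM cannot be resolved.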

Other observations

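Some genes of the set carry neighbouring identifier numbers. Consecutive numbers occurred in 2 pairs, 1 of which includes TEA009099.1, and 4 genes lay within 5 numbers of the next gene of the set. TEA010049.1 and TEA010054.1 are such a pair. Both were named for their excess of Yinghong9 over Qingxin1, so their shared order follows from that choice. Yinghong9 had the higher conventional mean in 44 of the 78 genes. Among the 86 annotated genes that meet the mirrored rule, lower in both Kucha genotypes, 2 pairs were consecutive and 3 genes lay within 5 numbers. These counts were made after the identifiers were seen. No source used here says whether the numbers follow positions on the assembly. The gene numbered next to TEA009099.1 was far lower, at 2.63, 2.76 and 1.83 FPKM in Kucha-6, 2.59, 3.84 and 4.51 in Kucha-11, 0.85, 0.43 and 0.34 in Yinghong9 and 0.8, 0.78 and 0 in Qingxin1.

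The rule is met by 0.866% of the unannotated loci in the same tables (76 of 8772), against 0.23% of the annotated genes. Both shares count features that did not enter the fit, which 22782 of the 33932 annotated genes did. The shares were not matched for level, and their difference was not tested.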
